A study of Mus musculus with 6 samples.

Results

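The 5p miRNAs of the miR-99/100 and miR-125 families, each made from a transcript that also carries a let-7 miRNA, were followed in EVs of mouse astrocytes and of neural stem cells (NSCs). The rule took the mature miRNA rows mmu-miR-99a-5p, mmu-miR-99b-5p, mmu-miR-100-5p, mmu-miR-125a-5p and mmu-miR-125b-5p (mmu marks the mouse and is left out from here on), which are 5 of the 902 mature miRNA rows and of the 61949 rows of the count table. The rule uses no measured value, though the members were chosen with earlier results of these data known. Cells release extracellular vesicles (EVs) loaded with RNA and protein, and small RNA was counted in 3 astrocyte EV libraries and 3 NSC EV libraries, all from CD1 mice and with no transgene or treatment. Astrocytes were grown from dorsal cortices of pups at postnatal day 4, shaken to remove microglia and oligodendrocytes, and kept in medium with 2% fetal bovine serum, and NSCs were primary cells of the neonatal subventricular zone. EVs were pelleted by serial centrifugation, so each library holds RNA of mixed vesicles, and whether a miRNA sat in more vesicles or at a higher amount in each cannot be told apart. The labels do not say that replicates were separate cultures, so p-values measure the spread between these libraries.

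A miRNA is cut from a hairpin whose 5p and 3p arms can each be loaded into Argonaute, and bases 2 to 8 of the loaded strand, the seed, choose the mRNAs it represses. MiR-99a, miR-99b and miR-100 form 1 seed family, known to repress Mtor and Igf1r, the kinase and the receptor of growth signalling. MiR-125a and miR-125b are the mammalian relatives of worm lin-4 and, like let-7, target Lin28, the RNA-binding protein that blocks let-7 maturation. In the mouse each let-7 gene of these clusters lies between a miR-99 family gene and a miR-125 family gene on 1 transcript, and such a transcript can give all 3 miRNAs.

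The mature sequences (RefSeq, GRCm38.p6, all 5 matched by name) are shown because the seed in capitals defines the 2 families and because bases outside it are all that separates family members in the counts.
miR-99a-5p: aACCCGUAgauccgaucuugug
miR-100-5p: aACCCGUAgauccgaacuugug
miR-99b-5p: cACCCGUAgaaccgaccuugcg
miR-125a-5p: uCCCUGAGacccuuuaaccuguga
miR-125b-5p: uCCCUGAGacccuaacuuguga
Positions are counted from 1 at the 5′ end. MiR-99a-5p and miR-100-5p differed at 1 of 22 positions (U16A), so a read with an error or an end before that base could be given to either, and miR-99b-5p differed from miR-99a-5p at 4 positions (A1C, U11A, U16C and U21C). MiR-125a-5p and miR-125b-5p share their first 13 bases. Of the other RefSeq miRNAs with the miR-125 seed, miR-351-5p had a row in the table, and no other RefSeq miRNA had the miR-99 seed.

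On the mm10 build all these hairpins lie on the plus strand. Mir-99b, let-7e and mir-125a lie within 692 bases of each other (chr17:17830188-17830879), in an intron of Spaca6, a gene for a sperm protein. Mir-99a, let-7c-1 and mir-125b-2 span 47408 bases (chr16:77598936-77646343) in an intron of the long noncoding transcript Mir99ahg. Mir-100, let-7a-2 and mir-125b-1 span 50578 bases (chr9:41531425-41582002) in introns of the Mir100hg transcript (3110039I08Rik in GENCODE vM21), and mir-125b-1 also lies in an exon of the small transcript Gm28119. The mature rows sit at chr17:17830194-17830215 for miR-99b-5p, chr17:17830817-17830840 for miR-125a-5p, chr16:77598940-77598961 for miR-99a-5p and chr9:41531437-41531458 for miR-100-5p. MiR-125b-5p has the same sequence at both of its genes (chr16:77646279-77646300 and chr9:41581940-41581961) and the table gives it 1 row, so its counts cannot be assigned to a locus. The same holds for let-7c-5p and let-7a-5p, which are also made outside these clusters.

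Mature miRNAs gave 177093 to 399211 counts a library, 0.212% to 0.538% of all counts in the table. A read can count in more than 1 row there. Astrocyte EV replicate 3 stood apart from the other 2 astrocyte EV libraries. Its mesenchymal miRNAs (6 listed) summed to 9354 CPM (counts scaled to a common library size, with TMM factors) against 131785 and 141234, its red blood cell miRNAs (7 listed) to 202886 against 38348 and 80653, and its brain-enriched miRNAs (4 listed) to 48398 against 1397 and 2192. In NSC EVs the same sums were 1145 to 2813 CPM, 1878 to 3323 CPM and 109811 to 151356 CPM. The mesenchymal miR-199a-3p and miR-199b-3p rows were identical (39754, 42916 and 2729 CPM in astrocyte EVs). Those of the red blood cell miR-486a-5p and miR-486b-5p were nearly so. Each pair enters its sum, and the counts of called miRNAs that follow, as 2 rows. Of the miRNAs tested, 5 of 6 red blood cell and 3 of 3 mesenchymal miRNAs were higher in astrocyte EVs, beside 22.3% of all tested miRNAs. Of the brain-enriched miRNAs 3 of 4 were lower, beside 25.8%. MiR-451a and miR-214-3p were at 0 in all NSC EV libraries, and miR-124-3p was at 0 in all astrocyte EV libraries. Of the red blood cell list, miR-486b-3p was also at 0 in all astrocyte EV libraries. MiR-486a-3p did not pass (log2 fold change −1.13, SE 1.34, edgeR adjusted p = 0.518). Microglia and white blood cell miRNAs summed to 988 to 3214 CPM in astrocyte EVs. They summed to 260 to 391 CPM in NSC EVs, where miR-223-3p and miR-142a-3p were at 0. Of the 3 tested, 2 were higher in astrocyte EVs and 1, miR-150-5p, was lower, at 0 in all astrocyte EV libraries and 46.9 to 85.4 CPM in NSC EVs. Both endothelial miRNAs were lower in astrocyte EVs (69.2 to 191 CPM against 934 to 1730 CPM). Of the fragments assigned to astrocyte genes, Gfap, the astrocyte filament protein, was higher in astrocyte EVs (log2 fold change 1.85, SE 0.38, edgeR adjusted p = 0.0263). Gfap had 89, 107 and 451 counts there, against 33, 51 and 31 for NSC EVs. The other 7 astrocyte marker genes did not pass, with log2 fold changes from −1.15 for Slc1a3 to 1.31 for Gja1. Nor did the 7 tested NSC marker genes, from −0.60 for Nes to 1.67 for Vim. Summed astrocyte markers (8 listed) overlapped, with 25.5 to 32.2 CPM for astrocyte EVs against 29.0 to 49.7 CPM for NSC EVs. Summed NSC markers (8 listed) had 9.84 to 15.4 CPM against 8.06 to 9.83 CPM. Neither sum was thus higher throughout the libraries of its own cell type. The part of these other cell sources, of serum RNA and of this library in the results was not tested beyond the values given beside them.

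Calls differed among the members of each of the 2 families, which is no test of a difference between members. MiR-99b-5p and miR-100-5p were higher in astrocyte EVs, miR-125b-5p was lower, and miR-99a-5p and miR-125a-5p did not pass the test (edgeR quasi-likelihood test, Benjamini-Hochberg adjusted over 256 mature miRNAs). The 2 of 5 members that rose and the 1 that fell stand beside 22.3% and 25.8% of all tested miRNAs called higher and lower, and 48% called in all. All 5 members passed the low-count filter, with 80 to 3049 counts in a library, and their median log2 fold change was 0.50 against −0.060 over all tested miRNAs. Astrocyte and NSC EV levels did not overlap for 4 of 5 members, beside 64.8% of tested miRNAs.

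MiR-99b-5p, the most abundant member in both EV types, had 11596, 12888 and 9596 CPM in astrocyte EVs and 2451, 2583 and 3310 CPM in NSC EVs. The lowest astrocyte EV library was well above the highest NSC EV library. The level was 4.08-fold higher in astrocyte EVs (log2 fold change 2.03, SE 0.31, edgeR adjusted p = 0.0032) and ranked 18th to 21st among mature miRNAs there and 31st to 41st in NSC EVs. As a share of mature miRNA counts it was 1.11% ± 0.305 (SD, n = 3) for astrocyte EVs against 0.289% ± 0.0116 (SD, n = 3) for NSC EVs.

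MiR-100-5p, which shares all but 1 base with miR-99a-5p, had 3478, 3592 and 2458 CPM in astrocyte EVs and 1056, 1236 and 1120 CPM in NSC EVs. Again the groups did not overlap, and astrocyte EV replicate 3 was the lowest of its group. The level was 2.79-fold higher in astrocyte EVs (log2 fold change 1.48, SE 0.31, edgeR adjusted p = 0.00695). The call was lost when library sizes were taken from all rows other than hairpins (log2 fold change 1.39, adjusted p = 0.0813).

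MiR-99a-5p had 1720, 1607 and 1712 CPM in astrocyte EVs and 1583, 1541 and 1256 CPM in NSC EVs. The 3 astrocyte EV values were each above the 3 NSC EV values, but only by a small margin. The log2 fold change was 0.20 (SE 0.29, edgeR adjusted p = 0.595), within its error. Counted as 1 row because their sequences differ at a single base, miR-99a-5p and miR-100-5p together were higher in astrocyte EVs by 0.88 on the log2 scale (SE 0.28, edgeR adjusted p = 0.0340).

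MiR-125a-5p had 1378, 2000 and 658 CPM in astrocyte EVs and 647, 1042 and 1169 CPM in NSC EVs, and the groups overlapped. Astrocyte EV replicate 3 was near the lowest NSC EV library. Its log2 fold change was 0.50 (SE 0.48, edgeR adjusted p = 0.427) and did not pass.

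MiR-125b-5p had 456, 479 and 252 CPM in astrocyte EVs and 651, 2013 and 1306 CPM in NSC EVs. All 3 astrocyte EV values were below the NSC EV values, which were themselves wide apart, with replicate 2 the highest. The level was 3.35-fold lower in astrocyte EVs (log2 fold change −1.74, SE 0.52, edgeR adjusted p = 0.0280). This call was not stable: it ended when replicate 1 or 2 of the astrocyte EVs, or replicate 2 or 3 of the NSC EVs, was left out (adjusted p = 0.0646, 0.0727, 0.0668 and 0.0525), with log2 fold changes from −1.88 to −1.40 over the 6 omissions. It also ended with library sizes from all rows other than hairpins (adjusted p = 0.0660), with no low-count filter (adjusted p = 0.0523) and against a 2-fold change (adjusted p = 0.0895).

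**Figure D1:**
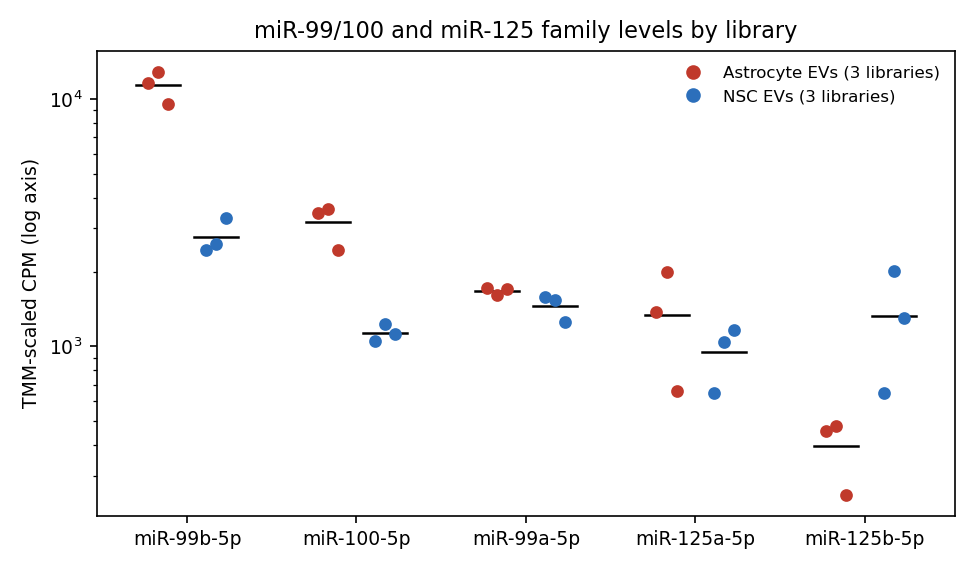
TMM-scaled CPM (log axis) of the 5 members in each library, with red points for astrocyte EVs, blue points for NSC EVs and black lines for group means. MiR-99b-5p and miR-100-5p sit higher in all astrocyte EV libraries, miR-125b-5p sits lower, and miR-125a-5p overlaps.

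These values were not changed in call by removing the red blood cell or the mesenchymal miRNAs from the table. The removal alters only the scaling and the list of tests adjusted over, and leaves the counts of the members as they were. Whether reads of the members came from such cells was therefore not tested. Without red blood cell miRNAs the log2 fold changes were 2.06 for miR-99b-5p, 1.51 for miR-100-5p and −1.72 for miR-125b-5p (edgeR adjusted p = 0.00283, 0.0061 and 0.0281). Without mesenchymal miRNAs they were 1.997, 1.44 and −1.80 (edgeR adjusted p = 0.00205, 0.00545 and 0.0201).

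The choice of denominator moved the sizes. As shares of mature miRNA counts, the log2 ratios of astrocyte to NSC EV means were 1.94 for miR-99b-5p, 1.39 for miR-100-5p, 0.068 for miR-99a-5p, 0.44 for miR-125a-5p and −1.81 for miR-125b-5p. As shares of all rows other than hairpins, they were 1.23, 0.64, −0.68, −0.27 and −2.54, so that miR-99a-5p and miR-125a-5p turned sign.

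The order of the members by group mean CPM differed between the EV types. In astrocyte EVs it ran miR-99b-5p, miR-100-5p, miR-99a-5p, miR-125a-5p, miR-125b-5p, and the ranges of neighbours were apart except those of miR-99a-5p and miR-125a-5p. In NSC EVs it ran miR-99b-5p, miR-99a-5p, miR-125b-5p, miR-100-5p, miR-125a-5p, and only the first neighbours were apart. There miR-99a-5p was above miR-125b-5p in 1 of 3 libraries. MiR-125b-5p was above miR-100-5p, and miR-100-5p above miR-125a-5p, in 2 of 3 each, so the NSC EV order below miR-99b-5p holds for means only. The miR-99/100 family together held 1.10% to 1.94% of mature miRNA counts in astrocyte EVs, against 0.519% to 0.586% in NSC EVs. The miR-125 5p miRNAs held 0.0724% to 0.235% and 0.149% to 0.334%, and these ranges overlapped.

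The make-up of each family also differed. MiR-99b-5p made up 69.1%, 71.3% and 69.7% of miR-99/100 family counts in astrocyte EVs and 48.2%, 48.2% and 58.2% in NSC EVs. MiR-99a-5p made up 10.2%, 8.89% and 12.4% in astrocyte EVs and 31.1%, 28.8% and 22.1% in NSC EVs, while miR-100-5p held 17.9% to 20.7% and 19.7% to 23.1%. MiR-125a-5p made up 75.1%, 80.7% and 72.3% of the 2 miR-125 miRNAs in astrocyte EVs and 49.9%, 34.1% and 47.2% in NSC EVs.

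**Figure D2:**
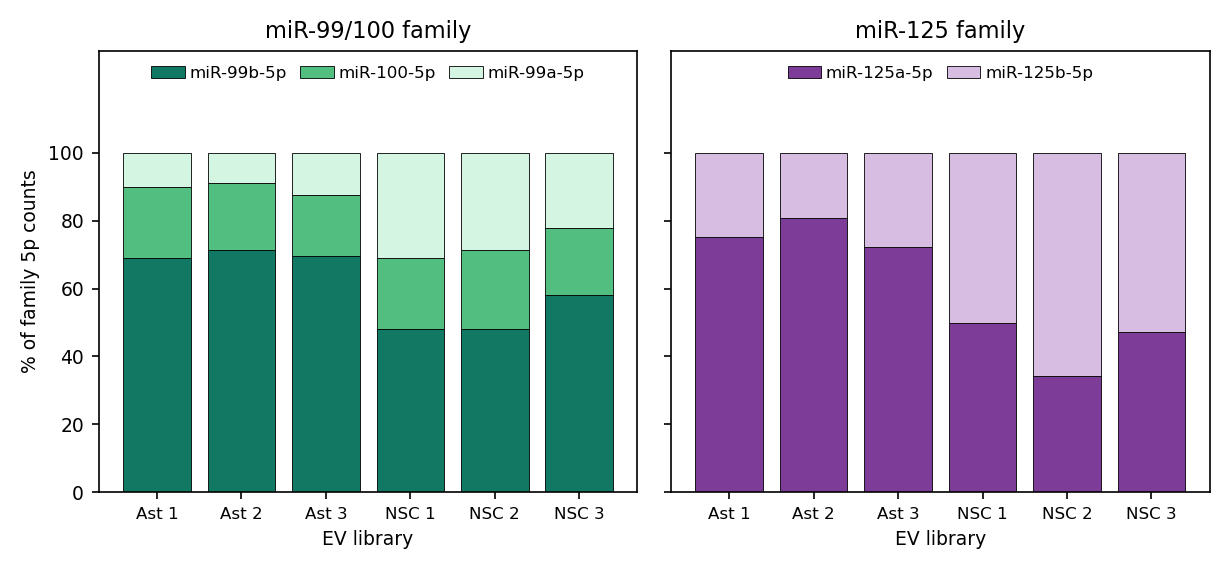
Percent of miR-99/100 family counts (left) and miR-125 5p counts (right) taken by each member in the 3 astrocyte EV (Ast) and 3 NSC EV libraries. MiR-99b-5p and miR-125a-5p take a larger part of their family in every astrocyte EV library than in any NSC EV library.

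Ratios of 2 miRNAs within a library do not depend on the scaling of that library. All 4 ratios between family members separated the EV types without overlap, beside 57.6% of the 20100 pairs of tested miRNAs counted in every library. The miR-99a-5p to miR-99b-5p ratio was 3.54-fold lower in astrocyte EVs, the miR-99a-5p to miR-100-5p ratio 2.39-fold lower, the miR-100-5p to miR-99b-5p ratio 1.48-fold lower and the miR-125b-5p to miR-125a-5p ratio 4.15-fold lower. Each had an exact two-sided permutation p of 0.1 (adjusted over 4 ratios 0.1), the smallest that 3 libraries against 3 allow, so the test could not reach 0.05.

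The miR-99b, let-7e and miR-125a cluster was compared with its let-7 partner next. Let-7e-5p had 15364, 20032 and 10833 CPM in astrocyte EVs and 3481, 4583 and 5649 CPM in NSC EVs and was higher in astrocyte EVs (log2 fold change 1.75, SE 0.37, edgeR adjusted p = 0.00695). MiR-99b-5p rose with it, and the log2 ratio of miR-99b-5p to let-7e-5p was −0.41 ± 0.23 (SD, n = 3) in astrocyte EVs against −0.70 ± 0.17 (SD, n = 3) in NSC EVs, with overlap (exact permutation p = 0.2). MiR-125a-5p did not keep that ratio. There were 11.2, 10.02 and 16.5 let-7e-5p counts for each miR-125a-5p count in astrocyte EVs and 5.38, 4.40 and 4.83 in NSC EVs, with no overlap.

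In the chromosome 16 cluster, let-7c-5p, the most abundant miRNA in every library, did not pass the test (log2 fold change −0.27, SE 0.45, edgeR adjusted p = 0.634), nor did miR-99a-5p, and their ratio overlapped between EV types (exact permutation p = 0.5). In the chromosome 9 cluster, let-7a-5p did not pass (log2 fold change 0.56, SE 0.32, edgeR adjusted p = 0.183). The widest separation among the 9 pairs within clusters was miR-100-5p to miR-125b-5p, at 7.62, 7.51 and 9.76 in astrocyte EVs and 1.62, 0.614 and 0.858 in NSC EVs, 8.68-fold higher in astrocyte EVs. MiR-99a-5p to miR-125b-5p was 3.64-fold higher, and miR-125b-5p was lower against let-7a-5p by 4.65-fold and against let-7c-5p by 2.65-fold. Of the 9 ratios within clusters, 7 did not overlap, beside 57.6% of all pairs of tested miRNAs counted in every library. Each of the 7 had an exact permutation p of 0.1 (adjusted over 9 ratios 0.129). Ratios with miR-125b-5p, let-7c-5p or let-7a-5p mix reads of more than 1 gene. Within a cluster any ratio follows from the others, and miR-125b-5p enters the chromosome 16 and chromosome 9 clusters. The 9 are therefore not separate observations.

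**Figure D3:**
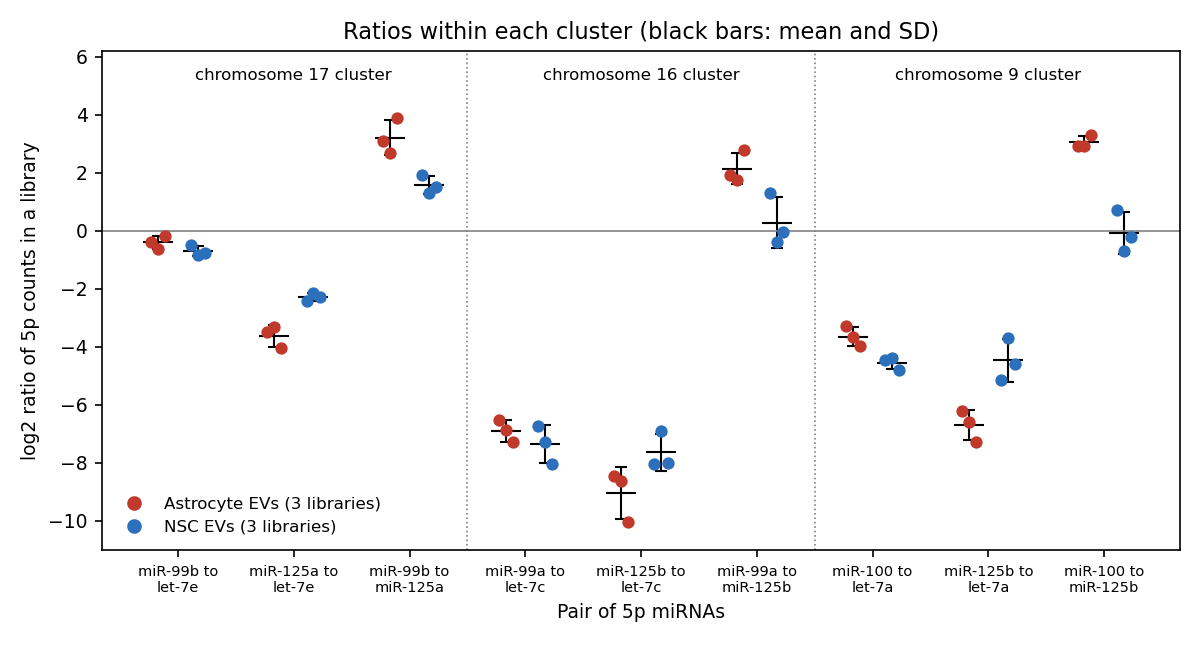
Log2 ratio of 5p counts within a library for the 9 pairs inside the 3 clusters, with red points for astrocyte EVs, blue points for NSC EVs and black bars for mean and SD (n = 3). Only the miR-99b to let-7e and miR-99a to let-7c pairs overlap between EV types.

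The 3p arms of the same hairpins gave a different picture from the 5p arms. Of 11 listed 3p arms, those of the let-7 partners included, 10 had a row, and 4 passed the low-count filter. The 3 arms of the miR-125 hairpins were higher in astrocyte EVs and miR-99b-3p did not pass, beside the 22.3% of tested miRNAs called higher. The hairpins of mir-125a and mir-125b-1 (RefSeq, GRCm38.p6) are shown because the balance of their arms, in capitals, differed between EV types.
mir-125a, chr17:17830812-17830879: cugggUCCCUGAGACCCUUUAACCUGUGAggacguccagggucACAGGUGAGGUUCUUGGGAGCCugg
mir-125b-1, chr9:41581926-41582002: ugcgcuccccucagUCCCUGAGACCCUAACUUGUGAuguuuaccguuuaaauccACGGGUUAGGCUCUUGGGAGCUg
The 3p arms of mir-125b-1 and mir-125b-2 differ from each other at 5 of 22 positions, so each reports its own gene.
miR-125b-1-3p: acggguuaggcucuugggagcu
miR-125b-2-3p: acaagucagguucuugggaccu

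MiR-125a-3p had 475, 630 and 633 CPM in astrocyte EVs and 124, 80.9 and 86.6 CPM in NSC EVs. It was 5.91-fold higher in astrocyte EVs (log2 fold change 2.56, SE 0.42, edgeR adjusted p = 0.00376), though the 5p arm of the same hairpin did not pass. This call held in each omission of 1 library.

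MiR-125b-1-3p had 2841, 3275 and 3336 CPM in astrocyte EVs and 1838, 1074 and 1466 CPM in NSC EVs (log2 fold change 1.11, SE 0.32, edgeR adjusted p = 0.0263). MiR-125b-2-3p had 1283, 1033 and 1105 CPM in astrocyte EVs and 500, 395 and 483 CPM in NSC EVs (log2 fold change 1.31, SE 0.33, edgeR adjusted p = 0.0147). Both arms were thus higher where miR-125b-5p was lower. Both calls ended when astrocyte EV replicate 2, NSC EV replicate 2 or NSC EV replicate 3 was left out, and leaving out astrocyte EV replicate 3 ended that of miR-125b-1-3p (adjusted p up to 0.167 and 0.103).

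MiR-99b-3p had 57.0, 80.6 and 255 CPM in astrocyte EVs and 295, 252 and 167 CPM in NSC EVs, with astrocyte EV replicate 3 alone reaching NSC EV levels. The log2 fold change was −0.85 (SE 0.66, edgeR adjusted p = 0.322), and without that library it was −1.99 (adjusted p = 0.0303). The other arms did not pass the low-count filter. MiR-99a-3p had 21 counts over the astrocyte EV libraries and 11 over the NSC EV libraries, miR-100-3p 5 and 12, let-7e-3p 4 and 11, let-7a-1-3p 72 and 16, and let-7c-2-3p 64 and 13. The seed-sharing miR-351-5p had 333, 257 and 478 CPM in astrocyte EVs and 349, 117 and 80.4 CPM in NSC EVs and did not pass (log2 fold change 0.95, SE 0.64, edgeR adjusted p = 0.249).

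**Figure D4:**
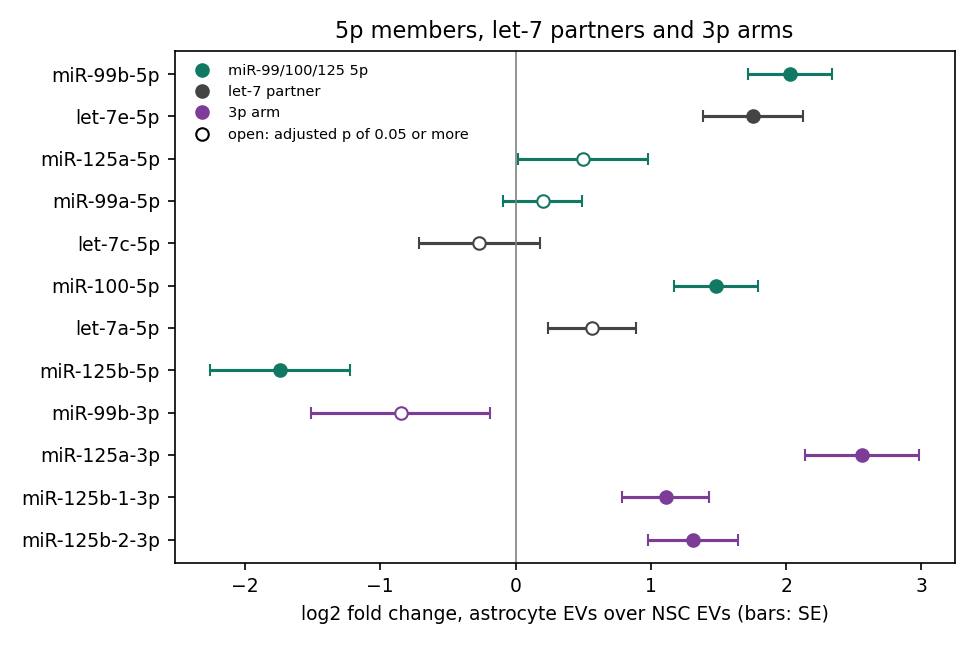
Log2 fold change of astrocyte EVs over NSC EVs, with SE, for the 5p members, their let-7 partners and the 3p arms that passed the low-count filter, where open points did not pass. MiR-125b-5p lies on the low side at −1.74 while both of its 3p arms lie on the high side at 1.11 and 1.31.

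The share of each hairpin's reads that came from the 3p arm put these values side by side. For mir-125a it was 25.6%, 23.9% and 49.0% in astrocyte EVs and 16.1%, 7.2% and 6.90% in NSC EVs. For mir-125b-1 it was 86.2%, 87.2% and 93.0% against 73.9%, 34.8% and 52.9%, and for mir-125b-2 it was 73.8%, 68.3% and 81.4% against 43.4%, 16.4% and 27.0%. For mir-99b the order was turned, with 0.489%, 0.622% and 2.59% in astrocyte EVs and 10.7%, 8.87% and 4.80% in NSC EVs. None of the 4 overlapped, beside 50% of the 34 hairpins with both arms past the filter. In the 2 miR-125b hairpins the 5p count is the same sum over both genes, so their shares are not independent of each other.

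The 5p to 3p ratio was tested over those 34 hairpins (edgeR diffSpliceDGE, chosen after the arm counts were seen). It was lower in astrocyte EVs for mir-125a (log2 difference −2.06, adjusted p = 0.0118), mir-125b-1 (−2.85, adjusted p = 0.00293) and mir-125b-2 (−3.05, adjusted p = 0.00293), and higher for mir-99b (2.88, adjusted p = 0.00293). In all, 12 hairpins (35.3%) were called, 17.6% in each direction. For mir-125a the call ended without NSC EV replicate 2 (−1.81, adjusted p = 0.0627) or 3 (−1.83, adjusted p = 0.0505), and the other 3 held in each omission, with mir-99b at 4.03 without astrocyte EV replicate 3.

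**Figure D5:**
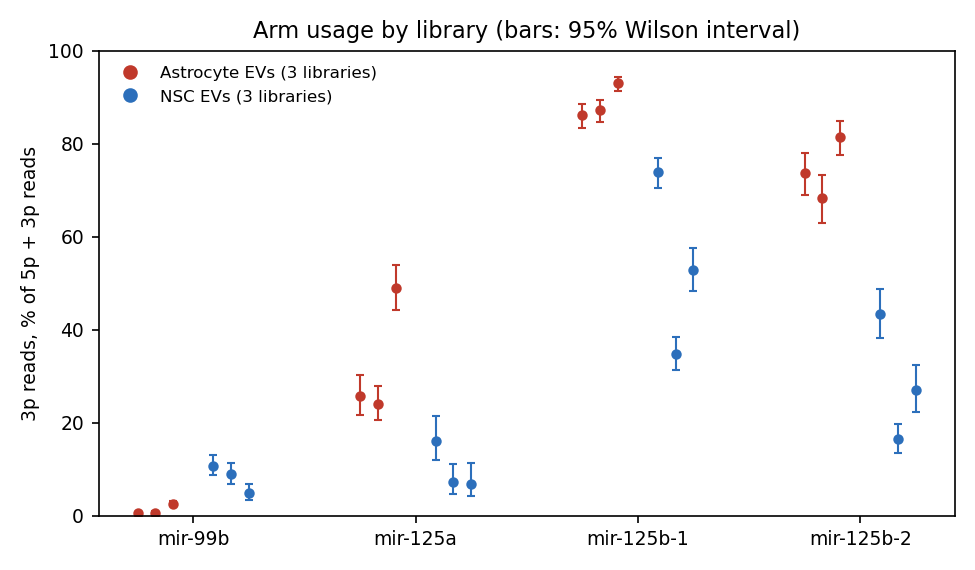
Share of 3p reads among 5p and 3p reads of each hairpin in each library, with 95% Wilson intervals that cover counting error only. The mir-125a, mir-125b-1 and mir-125b-2 shares are higher, and the mir-99b shares lower, in every astrocyte EV library (red) than in any NSC EV library (blue).

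The 2 miR-125b genes could be told apart by their 3p arms alone. Mir-125b-1 gave 68.9%, 76.0% and 75.1% of miR-125b 3p counts in astrocyte EVs and 78.6%, 73.1% and 75.2% in NSC EVs, so the split between the genes overlapped between EV types. Both 3p arms together made up 90.0% to 94.6% of all miR-125b counts in astrocyte EVs, against 42.2% to 78.2% in NSC EVs.

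Hairpin rows repeat the reads of their arms, to within −5 to 18 counts. Mir-99b (log2 fold change 2.05, SE 0.26, edgeR adjusted p = 0.00164), mir-100 (1.57, SE 0.28, adjusted p = 0.00444) and mir-125a (1.01, SE 0.34, adjusted p = 0.0444) were higher in astrocyte EVs, beside 23.3% of 258 hairpins called higher and 47.3% called in either direction. Mir-125b-1 (0.47, SE 0.25, adjusted p = 0.159), mir-125b-2 (−0.09, SE 0.34, adjusted p = 0.825) and mir-99a (0.32, SE 0.29, adjusted p = 0.381) did not pass, although the 2 arms of each miR-125b hairpin were called in opposite directions. Both miR-125b hairpin rows hold the pooled miR-125b-5p count, so they are not separate results for the 2 genes.

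The rows of the host transcripts were read from fragments in the same libraries. The Mir99ahg row (2810055G20Rik), which does not span the miRNAs, had 240, 313 and 647 counts in astrocyte EVs and 439, 1154 and 866 in NSC EVs, where libraries held 44620985 to 50898531 counts in the whole table against 72359982 to 111851274 in astrocyte EVs. Its log2 fold change was −1.44 (SE 0.38, edgeR adjusted p = 0.0502), just short of the threshold, and it passed without NSC EV replicate 1 (−1.73, adjusted p = 0.0327). The Mir100hg row (2610203C20Rik) spans mir-125b-1, whose hairpin row, with the pooled miR-125b-5p reads, equalled 90.3% to 97.1% of its counts. The whole row did not pass (log2 fold change 0.24, SE 0.37, edgeR adjusted p = 0.705), and the remainder of 59, 80 and 72 counts in astrocyte EVs and 22, 44 and 26 in NSC EVs did not pass (log2 fold change 1.02, SE 0.49, edgeR adjusted p = 0.204). The Spaca6 row (Ncrna00085) had 5, 5 and 32 counts and 2, 36 and 12 counts and did not pass.

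Fragments of 13 known target genes were counted in the same table. At an edgeR adjusted p under 0.05 none was higher and 2 were lower in astrocyte EVs, beside 5.54% and 4.24% of 41308 tested rows (9.78% called in all). At an unadjusted p under 0.05, 2 targets were higher and 3 lower, but the share of all rows at that threshold was not taken. The median log2 fold change of the targets was −0.043 against −0.039 over all tested rows. The 2 rows lower at the adjusted threshold were Bak1, a protein of the apoptosis machinery and a miR-125b target, with 15, 25 and 54 counts against 45, 119 and 102 (log2 fold change −1.98, SE 0.43, edgeR adjusted p = 0.0316), and Trp53, the p53 gene and another miR-125b target, with 15, 31 and 98 counts against 56, 295 and 142 (−2.38, SE 0.58, adjusted p = 0.0412). Neither call held when any library other than NSC EV replicate 1 was left out. The listed targets of the miR-99/100 family did not pass. Their log2 fold changes were 0.72 for Mtor, 1.004 for Igf1r and −0.93 for Fgfr3 (SE 0.32, 0.41 and 0.33), and 0.24 for Smarca5 and −0.24 for Ppp3ca (SE 0.37 and 0.31). Lin28a (0.99, SE 0.42) and Lin28b (−0.37, SE 0.35) did not pass either. These are fragments in EVs, not levels of the genes in cells.

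The miRNAs whose log2(TMM CPM + 1) most resembled each member over the 6 libraries are given as a description, since they share libraries and a common EV-type difference. For miR-99b-5p they were miR-183-5p, miR-1943-5p and miR-423-5p (Pearson r = 0.99, 0.99 and 0.99), for miR-100-5p miR-21a-5p, miR-1943-5p and miR-31-5p (0.99, 0.99 and 0.99), and for miR-125b-5p miR-340-5p, miR-101b-3p and miR-16-5p (0.94, 0.94 and 0.93). For miR-99a-5p they were miR-329-5p, miR-29b-3p and miR-23a-3p (0.95, 0.92 and 0.90), and for miR-125a-5p miR-376b-5p, miR-148a-3p and miR-5108 (0.88, 0.84 and 0.82). Some of these had few or no counts in NSC EVs, with miR-1943-5p at 0 in every library, miR-183-5p at 8.99 to 18.6 CPM and miR-29b-3p at 0 to 13.5 CPM. No cluster partner of a member was among its 3 closest of 255 candidate miRNAs. This ranking does not show that partners moved apart, and the miR-99b-5p to let-7e-5p ratio overlapped between EV types.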

How the data were processed

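The authors deposited whole-number read counts for 61949 annotated rows, 1 column per library and without normalization. Tools listed by the submitters' processing notes were Bowtie, Bowtie2, bedtools, cutadapt, DESeq, FastQC and SAMtools, with the mm10 build. Versions, multi-mapping and strand handling are not given in the sources used here. The hairpin rows of mir-125b-1 and mir-125b-2 each hold all or nearly all of the pooled miR-125b-5p count, so some reads were counted in more than 1 row. Column totals (44620985 to 111851274 counts) exceed the read depth stated in the paper, so shares of all counts are not shares of reads. The other deposited tables hold group means, fold changes and adjusted p-values of the authors' comparison and were not used. The paper and the series record name different library kits and sequencers. 

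The members and lists were chosen with earlier results of these data known. Named were the members, their let-7 partners, listed arms, seed sharers, host and target rows with at least 10 counts in all, and the 3 most correlated miRNAs per member. Hosts were matched through RefSeq synonyms. Listed host names at other loci were not used. Mature rows (902) were tested in edgeR 4.0.16 (R 4.3.3): default low-count filter by group, TMM (factors 0.796 to 1.16), quasi-likelihood test, adjusted p under 0.05, log2 fold change as astrocyte EVs minus NSC EVs, SE as its size over the square root of F. Hairpin rows, and all rows but hairpins, were fitted alone. Ratios used exact permutation in scipy 1.17.1 and intervals are 95% Wilson, covering counting error only. Scripts were tested on simulated data. No replicate pair matched within sampling noise (smallest chi-square per degree of freedom 20.7). The alternatives were DESeq2 1.42.0 (also its size factors), no TMM, other library sizes, filters, robust dispersion, omission of each library, a replicate block, summed or identical rows, lists removed and a 2-fold test. Arm usage, its omissions, omissions for host and target rows the Mir100hg subtraction and the share of all miRNA pairs whose ratios did not overlap were added after seeing the data.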

Additional observations from a re-analysis of the deposited data

How the results depend on the processing

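Over the alternatives of the edgeR test and DESeq2, miR-99b-5p (log2 fold change 1.84 to 2.19), let-7e-5p (1.62 to 1.91) and miR-125a-3p (2.24 to 3.03) kept their call, and miR-99a-5p (0.016 to 0.51), miR-125a-5p (0.22 to 0.72) and miR-351-5p (0.45 to 2.11) passed under none. With library sizes from all rows other than hairpins, miR-100-5p (1.39), miR-125b-5p (−1.72), miR-125b-1-3p (0.86) and miR-125b-2-3p (1.17) no longer passed. With no low-count filter, which adds tests, miR-125b-5p (−1.56), miR-125b-1-3p (1.19) and miR-125b-2-3p (1.42) no longer passed, and without TMM miR-125b-1-3p (0.97) did not. Against a 2-fold change, a stricter test of the same values, miR-100-5p (1.48), miR-125b-5p (−1.74), miR-125b-1-3p (1.11) and miR-125b-2-3p (1.31) did not pass. DESeq2 called let-7a-5p (0.52, adjusted p = 0.0463). For the other settings named here the cause was not tested. Same-numbered libraries of the 2 EV types share only a number (correlations of their deviations 0.062, 0.135 and 0.0746, with every library correlating best with its own number, a hint from the data and not the design), and with that replicate block 100 mature miRNAs were called against 123, and miR-125b-5p (−1.66) and miR-125b-1-3p (1.14) did not pass. With all rows other than hairpins as the denominator, the log2 ratios of mean shares were −0.68 for miR-99a-5p, 1.23 for miR-99b-5p, 0.64 for miR-100-5p, −0.27 for miR-125a-5p and −2.54 for miR-125b-5p.

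Leaving out 1 library at a time gave ranges of −1.88 to −1.40 for miR-125b-5p, 0.75 to 1.58 for miR-125b-1-3p, 1.06 to 1.65 for miR-125b-2-3p, −1.99 to −0.36 for miR-99b-3p, and −2.56 to −1.59 for the 5p to 3p ratio of mir-125a. Let-7c-5p ran from −0.58 to 0.037 and passed only without astrocyte EV replicate 3 (adjusted p = 0.0495), turning sign without astrocyte EV replicate 1 or NSC EV replicate 3. Rows that did not pass and turned sign were Mir100hg (whole row, −0.063 to 0.49), Spaca6 (−1.47 to 0.24), Trim71 (−0.46 to 0.87), Tnfaip3 (−0.020 to 0.80) and Prdm1 (−0.058 to 0.71). The count of target rows called ran from 0 to 2. Depth limits the 3p arms of mir-99a, mir-100 and the let-7 hairpins, which were not tested.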
